A study of Caenorhabditis elegans with 2 samples.

Results

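Introns are the stretches of a gene that are transcribed and then spliced out of the messenger RNA. In Caenorhabditis elegans they also hold smaller transcription units, copies of transposable elements and tandem repeats. RNA polymerase III genes such as those for tRNA carry their promoter inside the transcribed part, as an A box followed by a B box, and mobile elements derived from tRNA genes can keep these boxes. The peaks described here lay in introns of autosomal protein-coding genes, away from annotated gene starts and annotated small RNA genes, in chromatin bound by the nematode protein F44E2.7 carrying a GFP tag.

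There were 500 such peaks among 3082 peaks kept from the ranked list made from both replicates (16.2%, interval 14.9 to 17.6%) and among 2543 autosomal ones (19.7%). They were chosen by the authors' score in that list, which follows the irreproducible discovery rate (IDR), low where paired lists rank a peak alike. The score had to be 540 or more, and peaks of 830 or more that were absent from the thresholded list were left out. The summit then had to lie on an autosome, inside a protein-coding gene and in no exon of any annotated gene, outside a window of 1000 bp upstream to 200 bp downstream of every protein-coding gene start, and over 200 bp from every tRNA, snoRNA, snRNA or ncRNA gene. Peaks passing the score rule made up 2.83% of the 108809 ranked peaks. Of 636 autosomal summits within genes and outside exons, 569 lay outside the gene-start windows, and small RNA genes removed 69 more. The bases that met the position rule, called eligible intron here, came to 24.3 Mb, or 29.5% of the autosomes.

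All peaks come from 1 group, whole larvae at the L4 stage, 48 hours old, in 2 biological replicates. The strain, OP381, carries wgIs381, a transgene that encodes F44E2.7 fused to TY1, EGFP and 3xFLAG together with an unc-119(+) rescue gene, in an unc-119(tm4063) background, and the larvae had been starved as L1 after bleaching. Per the labels the antibody was anti-GFP in the description but anti-F44E2.7 in the antibody field. Chromatin came from the whole animal, so the cell types bound cannot be told apart, and no untagged sample or input was analysed here. The files hold no read counts, so depth is unknown. With no second condition, no test over samples could be made. The comparisons below set intron peaks beside other autosomal peaks and beside eligible intron as a description. Intervals on shares are at 95% by the exact Clopper-Pearson method and reflect only the number of peaks counted.

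Windows that reach 50 bp on each side of the summit are given first for 10 of the 25 intron peaks of highest signal, to show the sequence kinds that recur below. All are read on the plus strand of WBcel235, the genome of the files' ce11 coordinates, with bases from RefSeq. The first 3 are the intron peaks of highest signal. In cmk-1, which encodes a calcium/calmodulin-dependent protein kinase (chrIV:1831335-1831435), the capitals mark the reverse complement of CCTAGGCA, the 8 bases shared by its sequence group. In lips-10, a lipase-related gene (chrII:8441663-8441763), they mark the A box pattern on the minus strand. In mdt-26, a gene for a Mediator subunit (chrII:5661818-5661918), they mark an overlapping pair of GAGAG.

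cmk-1: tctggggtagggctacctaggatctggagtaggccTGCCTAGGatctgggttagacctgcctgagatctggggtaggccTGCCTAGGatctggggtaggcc

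lips-10: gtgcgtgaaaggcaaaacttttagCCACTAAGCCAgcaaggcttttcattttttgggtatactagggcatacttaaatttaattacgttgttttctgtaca

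mdt-26: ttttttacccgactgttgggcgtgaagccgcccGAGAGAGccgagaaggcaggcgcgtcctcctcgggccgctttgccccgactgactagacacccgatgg

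The next 4 hold the A box pattern, the B box pattern or both. In the chemoreceptor gene srt-52 (chrV:53447-53547) and in spe-43, a gene named for spermatogenesis (chrIV:13140947-13141047), the capitals mark the A box pattern and, in srt-52, the B box pattern downstream of it. In sms-3, a sphingomyelin synthase gene (chrIII:1600828-1600928), they mark the B box pattern on the minus strand. In pmt-2, a phosphoethanolamine methyltransferase gene (chrV:4632986-4633086), a minus-strand B box pattern overlaps AACTTGTC, the bases its sequence group shares, and the capitals cover both.

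srt-52: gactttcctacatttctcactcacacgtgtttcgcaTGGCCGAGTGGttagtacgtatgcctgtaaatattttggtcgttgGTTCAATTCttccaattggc

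spe-43: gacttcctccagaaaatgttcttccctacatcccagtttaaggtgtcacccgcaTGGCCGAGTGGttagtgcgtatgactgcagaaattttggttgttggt

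sms-3: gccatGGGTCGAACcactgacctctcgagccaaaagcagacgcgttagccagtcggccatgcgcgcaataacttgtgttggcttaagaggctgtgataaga

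pmt-2: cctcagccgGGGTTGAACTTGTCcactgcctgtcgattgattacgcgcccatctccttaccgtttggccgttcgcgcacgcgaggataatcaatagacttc

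The remaining 3 show repeats. T24H10.5 (chrII:9102774-9102874) belongs to the same sequence group as pmt-2 on the other strand, and the capitals mark the reverse complement of AACTTGTC. In swsn-1, a gene for a SWI/SNF chromatin remodelling subunit (chrV:20240252-20240352), the capitals mark 4 copies of GCGCTGCT. In unc-51, a gene for a kinase of autophagy and axon growth (chrV:19998346-19998446), they mark 7 copies of TTAGGC on the minus strand, the unit of nematode telomeres.

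T24H10.5: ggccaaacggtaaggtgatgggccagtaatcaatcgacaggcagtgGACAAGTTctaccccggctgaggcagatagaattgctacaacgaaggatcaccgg

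swsn-1: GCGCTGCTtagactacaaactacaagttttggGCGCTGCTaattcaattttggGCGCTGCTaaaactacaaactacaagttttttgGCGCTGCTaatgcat

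unc-51: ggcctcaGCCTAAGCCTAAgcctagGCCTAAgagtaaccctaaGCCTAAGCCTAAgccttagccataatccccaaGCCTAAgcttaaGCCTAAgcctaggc

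Signal is the authors' enrichment value on an unstated scale, and it ranks peaks within a list only. Across the 500 intron peaks it had a median of 62.9 (interquartile range 56.6 to 71.3) and ran between 2.11 and 310. The medians were 62.0 for 750 exon peaks, 63.4 for 372 intergenic peaks, 64.9 for 513 gene-start peaks and 75.7 for 408 peaks near small RNA genes. Signal bears on the score that chose the peaks, so these are descriptions. A score of 830 or more, equal to an IDR of 0.01 or lower and to membership of the authors' thresholded list, was reached by 117 intron peaks (23.4%, interval 19.8 to 27.4%). Among all kept peaks the share was 29.1%, and the score chose the peaks, so nothing is read from the difference. Another 383 had a score below 830. At the edge of the rule, the intron peaks in Y61A9LA.1, faah-5 and dcar-1 had a score of 540 and signals of 4.98, 16.7 and 53.9. Just outside it, peaks in F59A1.11, F56G4.7 and Y71F9B.15 had a score of 539 and signals of 59.4, 58.2 and 54.9.

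Each replicate has lists of its own, and few intron peaks were in the thresholded ones. The thresholded list of replicate 1 overlapped 14 intron peaks (2.8%, interval 1.54 to 4.65%), against 5.42% of all kept peaks, and that of replicate 2 overlapped 38 (7.6%, interval 5.43 to 10.3%), against 10.3% of all kept peaks. Both lists overlapped 8 (1.6%, interval 0.693 to 3.13%), against 3.7% of all kept peaks, and neither overlapped 456. The conservative list, also made from both replicates, overlapped 105 (21%), against 26.5% of all kept peaks. These lists are made from the same reads as the list that chose the peaks, so the overlaps are no independent check. In the ranked lists, which reach far lower scores, 476 intron peaks overlapped a peak of replicate 1, with a median signal of 28.5, and 495 overlapped one of replicate 2, with a median signal of 35.7. The replicate summits lay within 50 bp of the intron peak's summit in 76.1% of cases for replicate 1 and 77.8% for replicate 2. A peak in sos-1 overlapped no peak of either ranked list.

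**Figure D1:**
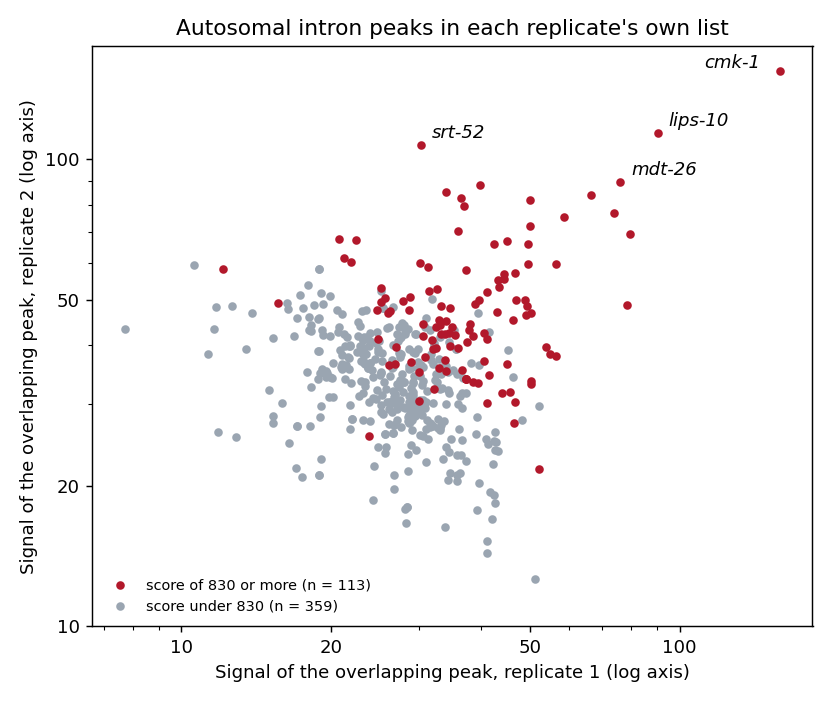
Signal of the overlapping peak in the ranked list of replicate 1 (x, log axis) and of replicate 2 (y, log axis) for the 472 intron peaks with a peak in both, in red at a score of 830 or more and in grey below 830. The peak in cmk-1 stands alone at the top with 159 and 154, while srt-52 has 30.3 in replicate 1 and 107 in replicate 2.

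The 25 peaks of highest signal lay in 24 genes and had signals of 103 or more. The peak in intron 2 of cmk-1 (chromosome IV, summit 1831385) had a signal of 310, with 159 in replicate 1 and 154 in replicate 2. Among the 472 intron peaks with a peak in both ranked lists it had rank 1 by signal in each. The peak in intron 3 of lips-10 (chromosome II, 8441713) followed with 215, and with 90.4 in replicate 1 and 114 in replicate 2. This intron is 198 bp long and the peak 78 bp wide, where 498 of the 500 peaks have a width of 270 bp. The peak in intron 2 of mdt-26 (chromosome II, 5661868) had 165, with 76.0 and 89.3 in replicates 1 and 2. T24H10.5 came next with 147, and with 79.6 and 69.2 in replicates 1 and 2. These 4, the peaks in elf-1 and cdkr-3, and both peaks of Y51F10.4 were in the thresholded lists of both replicates, and they make up all 8 of the intron peaks that were.

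Others among the 25 ranked differently in each replicate, again among those 472. The peak in srt-52 had 30.3 in replicate 1, rank 192, and 107 in replicate 2, rank 3. The peak in scc-2, which encodes the cohesin loader (chromosome II, 255337), had 34.0 and 85.1, ranks 124 and 6, and that in sms-3 had 39.7 and 88.2, ranks 65 and 5. The peak in swsn-1 (chromosome V, 20240302) had 58.9 in replicate 2 and no peak in the ranked list of replicate 1. In the other direction, the peak in Y69A2AR.31 had 78.5 in replicate 1, rank 4, and 48.7 in replicate 2, rank 59. Of the 25, 22 were thresholded in replicate 2 and 9 in replicate 1, against 10.3% and 5.42% of all kept peaks. The 25 were chosen by signal from the same reads, so nothing is read from these counts. The remainder of the 25 included host genes of chromatin proteins (pbrm-1, a PBAF complex subunit, signal 104), vesicle traffic (sec-23, a COPII coat protein, 114), neuronal signalling (tir-1, the SARM1 homologue, 108), the bZIP factor zip-7 (118.6), the patched-related ptr-17 (127), the chemoreceptor srw-100 (145), and C33B4.4 (103), Y105C5A.15 (111) and K08C7.1 (117). The peak in Y105C5A.15 had 29.1 in replicate 1 and no peak in the ranked list of replicate 2.

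At the low end stood peaks that lie on the side of another peak. Of the 500, 27 had a kept peak of higher signal within 300 bp, and in all 27 the stronger summit was at the lower coordinate, at a median distance of 202 bp (199 to 258). They included 23 of the 24 intron peaks with a signal under 20. In Y113G7C.1 on chromosome V, for example, the summit at 20319090 had a signal of 2.11 and that at 20318889 had 70.6, and both overlapped the same replicate 2 peak. In cdkr-3 the summits at 20270922 and 20270721 had 6.11 and 68.9. The stronger summit was sought among all kept peaks. Where it was an intron peak too, as in these 2 genes, both summits are in the count of 500. Without the 27 there were 473 intron peaks.

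The introns themselves were near the average for eligible sequence in length and order. Their median length was 1036 bp (interquartile range 452 to 2499), against a length-weighted median of 965 bp over eligible intron bases. Introns of 1000 bp or more held 256 peaks (51.2%, interval 46.7 to 55.7%), against 48.6% of eligible bases, and introns of 5000 bp or more held 63 (12.6%, interval 9.82 to 15.8%), against 11.7%. The first intron of a transcript held 161 peaks (32.2%, interval 28.1 to 36.5%), against 31.4% of eligible bases, and each of these intervals covers the share of eligible bases. In the longest coding transcript alone the share was 22.4%, and eligible bases were not counted that way. Of 104 intron peaks chosen from replicate 2's own ranked list by the same rules, 22.1% lay in a first intron of any transcript. Of 60 chosen so from replicate 1, 35% did. The nearest exon lay a median of 216 bp away, against 186 bp for eligible windows, and was within 50 bp of 90 summits (18%, interval 14.7 to 21.7%), against 22.1% of eligible windows.

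The 500 peaks fell in 424 genes, of which 54 had more than 1 peak. lgc-55, which encodes a tyramine-gated chloride channel (chromosome V), held 6, each in an intron of its own, with signals of 92.2, 90.7, 86.7, 78.3, 60.6 and 59.0. In replicate 1 these 6 ran between 37.3 and 44.4, all above the median of 28.5 over intron peaks there, and in replicate 2 between 17.7 and 56.9, on both sides of the median of 35.7. sec-23 held 4, with signals of 114, 79.8, 67.4 and 60.3, all in the thresholded list. mdt-17, a Mediator subunit gene, also held 4, and 3 of them lay in its intron 4, of 4867 bp, with signals of 76.1, 49.8 and 49.4. The introns with 3 peaks were that one, intron 5 of srw-100 (61.4, 64.2 and 145), intron 1 of ell-1 (29.7, 58.5 and 79.3), a gene for an ELL elongation factor, and intron 5 of T05A1.5 (12.2, 49.0 and 56.4). In ell-1 and T05A1.5 the lowest of the 3 lies beside a stronger one as described above.

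GC content was higher at the summits than around them. These summit windows held 46.0% ± 9.75 GC (SD over 500 peaks), against 37.4% in their flanks centred 300 bp away and 32.8% in 240841 eligible intron windows. The difference from the flanks averaged 8.54 percentage points (SD 10.6, median 7.92), and the summit window was the higher at 402 of 500 peaks (80.4%, interval 76.6 to 83.8%). It averaged 11.0 for exon peaks, 10.6 for intergenic peaks and 11.2 for gene-start peaks, so intron peaks had the smallest mean of these 4 kinds. The 95% intervals of the means over peaks were 7.62 to 9.47 for intron peaks, 10.3 to 11.7 for exon peaks, 9.57 to 11.7 for intergenic peaks and 10.3 to 12.1 for gene-start peaks, and they take peaks of related sequence as separate. Flanks can lie in exons. Over intron bases of the flanks alone the difference for intron peaks averaged 10.8 (439 peaks). This was not computed for the other kinds, so the order of the 4 kinds holds for whole flanks only. In mdt-26 the summit window held 64.4% GC and its flanks 24.3%. In cmk-1 they held 60.4% and 62.9%, and in lips-10 36.6% and 38.1%, so in the 2 intron peaks of highest signal the summit was not the more GC-rich. The flanks of cmk-1 lay within its intron, but those of lips-10 lay outside its intron of 198 bp. 

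Tandem repeats, in which a unit is repeated head to tail, were more frequent at intron peaks than in introns at large. A window was counted as one when 70% or more of its bases equalled the base a fixed distance of 2 to 50 bp further on. This held for 49 intron peaks (9.8%, interval 7.34 to 12.7%), against 5.3% of their flanks (interval 3.99 to 6.88%) and 1.98% of eligible windows. Intergenic peaks had 9.95% and exon peaks 1.33%. The 49 had periods between 6 and 48 bp with a median of 34, and a median signal of 70.2, against 62.4 for the other 451. They included cmk-1 (period 22 bp, 84.8% of bases), the second peak of Y51F10.4 (35 bp, 93.9%), srw-100 (34 bp, 74.6%), unc-51 (6 bp, 75.8%) and tir-1 (40 bp, 96.7%). Among the intron peaks chosen from each replicate alone the share was 14.4% of 104 in replicate 2 and 18.3% of 60 in replicate 1, and it was 15.4% of the 117 in the thresholded list.

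Sequence present many times in the genome showed a smaller difference. Copy number was taken as the median genome count of the 16-base words of a window. It was 5 or more at 113 intron peaks (22.6%, interval 19.0 to 26.5%), against 15.6% of flanks (interval 13.4 to 18%), 15.7% of eligible windows, 24.7% of intergenic peaks and 1.87% of exon peaks. Windows of copy number 1 were 325 of 500 (65%), against 65.1% of flanks and 56.3% of eligible windows. The share of bases that RefSeq masks as repeats averaged 37.6% at intron peaks, 40.8% in their flanks and 52.04% in eligible windows, so by these 2 measures the summits were close to their flanks and less repetitive than introns at large. Of the 113 peaks of 5 or more copies, 8 were in the replicate 1 list and 15 in the replicate 2 list, against 5 and 18 of the 325 single-copy peaks. Chosen from 1 replicate alone, 37.5% of 104 intron peaks in replicate 2 and 28.3% of 60 in replicate 1 had 5 or more copies. The sources used here do not say how reads mapping to several places were treated, and the part of such reads in these peaks was not tested.

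**Figure D2:**
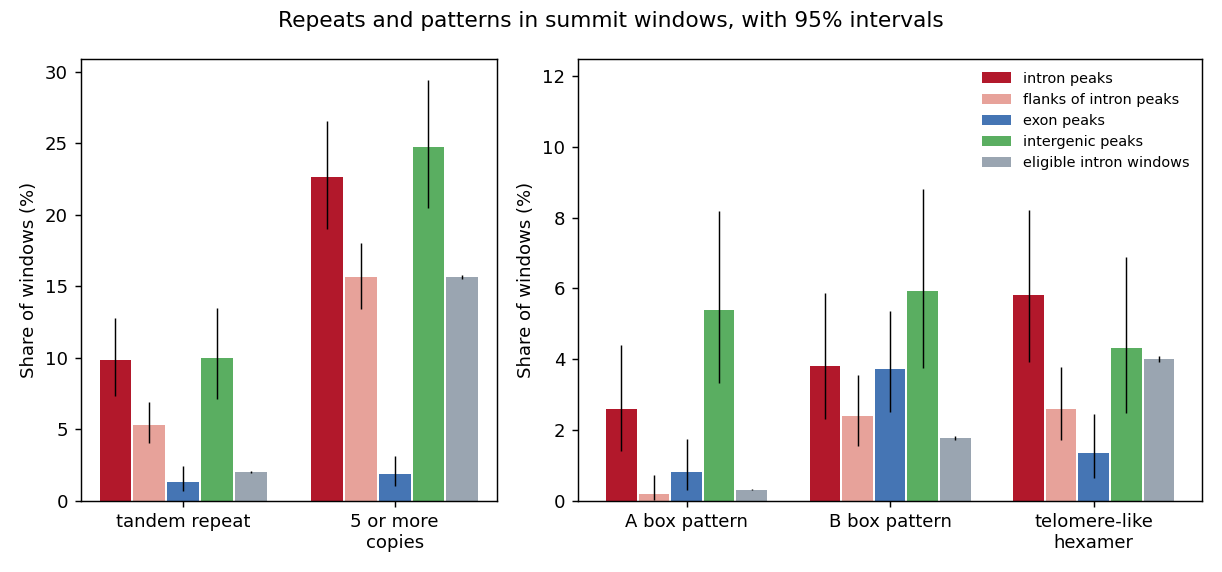
Share of windows of 50 bp on each side of the summit (y, %) that are a tandem repeat, have 5 or more genome copies, or hold the A box pattern, the B box pattern or the telomere-like hexamer TTAGGC, for intron peaks, their flanks, exon peaks, intergenic peaks and eligible intron windows; lines are 95% intervals. Intron peaks stand at 9.8% for tandem repeats, against 1.98% of eligible windows, and at 2.6% for the A box pattern, against 0.311%.

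The A box or B box pattern, each a part of RNA polymerase III promoters, was present at a small number of intron peaks although annotated small RNA genes had been removed. The A box pattern was searched on both strands as a degenerate 11-base pattern named A box (TNGCNNAGNGG, with A or G at the first N), and the B box as GTTCNANNC (with A or G at the first N). The A box pattern was in 13 windows (2.6%, interval 1.39 to 4.41%), against 0.2% of flanks, 0.311% of eligible windows, 0.8% of exon peaks and 5.38% of intergenic peaks. The B box pattern was in 19 (3.8%, interval 2.30 to 5.87%), against 2.4% of flanks, 1.76% of eligible windows, 3.73% of exon peaks and 5.91% of intergenic peaks. Peaks near small RNA genes, which the rule left out, had 11.8% and 31.1%. Of the 117 intron peaks in the thresholded list, 9 held the A box pattern (7.69%, interval 3.58 to 14.1%) and 8 the B box pattern (6.84%, interval 3.00 to 13.0%). Both patterns were in only 3 windows, in srt-52, Y6B3B.1 and jip-1. In Y6B3B.1 the A box pattern was centred 2 bp and the B box pattern 46 bp downstream of the summit, at the window's edge. In spe-43 and C31C9.6 the A box pattern was centred 9 and 16 bp downstream, so a B box pattern at that spacing would lie outside. Whether peaks with 1 pattern lack the other thus cannot be told from these windows. The 29 intron peaks with either pattern had a median signal of 72.8, with 34.6 in replicate 1 and 42.5 in replicate 2, against 62.6, 28.4 and 35.6 for the 471 with neither. Chosen from 1 replicate alone, 10.6% of 104 intron peaks in replicate 2 and 10% of 60 in replicate 1 held the B box pattern. Annotated tRNA pseudogenes lay within 200 bp of 4 intron peaks, and 1 of the 29, in jip-1, was among them, 72 bp away.

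Intron peaks were also compared with each other. By blastn with alignments of 40 bp or more, 143 of them (28.6%, interval 24.7 to 32.8%) fell into 21 groups alike in sequence, of which 13 had 3 or more peaks. The groups and their shared words were drawn from these same windows, so their counts are descriptions. Members of a group are copies of related sequence and not independent sites. For comparison, 68 of the 357 peaks in no group and 117 of all 500 intron peaks were in the thresholded list.

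A group called tRNA-like here, after its A box pattern, had 9 peaks on all 5 autosomes. They were in srt-52, spe-43, Y50D7A.1, Y6B3B.1, C31C9.6, T19C3.6, Y40H7A.4, tpra-1 and trpl-3. Their signals ran between 62.8 and 134 with a median of 91.3, and their medians were 36.99 in replicate 1 and 46.5 in replicate 2, above the medians of 28.5 and 35.7 over all intron peaks. The A box pattern was in 7 of the 9, and 6 were in the thresholded list. In 5 of those 7 genes the pattern lay on the strand opposite to the host gene. The stretch gcaTGGCCGAGTGGttagt, with the A box pattern in capitals, was shared by 6 of the 7. It occurs 41 times in the genome, of which 13 are in eligible intron, and 6 of these 13 are the intron peaks. Over the whole genome 14 of the 41 copies lay within 50 bp of a kept peak.

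A group of 4 peaks, in T24H10.5, pmt-2, ptr-17 and Y22D7AR.2, lay on 4 chromosomes, and all 4 were in the thresholded list. Their signals were 147, 128, 127 and 75.2, with 36.4 to 79.6 in replicate 1 and 34.6 to 82.8 in replicate 2. Their windows have a median copy number of 16, and 3 of the 4 hold the B box pattern. K08C7.1 (117) and hpo-38 (78.6) formed another pair.

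The largest group had 36 peaks on 5 chromosomes, of which 19 were tandem repeats, and the most frequent period was 35 bp. Signals ran between 27.4 and 145 with a median of 64.7, and 8 peaks were in the thresholded list. The word TGCCGGAA was in 24 of the 36 windows, against 2.32% of eligible windows. Its host genes included Y51F10.4, srw-100, tir-1, plx-1 (a semaphorin receptor), sbp-1 (the SREBP homologue), dys-1 (dystrophin) and daf-2 (the insulin receptor), and daf-2 had a signal of 61.3. A group of 13 had telomere-like sequence, with AAGCCTAA in all 13, against 0.989% of eligible windows. It included 2 of the 3 unc-51 peaks, of 112 and 95.1, and the peak in tra-1, the sex determination factor, at 64.6. Over all intron peaks TTAGGC was in 29 windows (5.8%, interval 3.92 to 8.22%), against 3.997% of eligible windows.

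A group of 10 lay on chromosome V throughout, in swsn-1, cdkr-3, prmt-1, sec-23, mdt-17, dcs-1 and emb-4, and all 10 were in the last 10% of the chromosome. GCGCTGCT, shown above for swsn-1, was in all 10, against 0.187% of eligible windows. The flanks of intron peaks held it in 11 of 1000 windows. Signals ran between 57.6 and 123 and 6 were in the thresholded list. The peaks with CGGCCGAC (13 of 500, 2.6%, against 0.205% of eligible windows) and GGCAGGCA (17, 3.4%, against 0.629%) had been looked for after the windows were read, as had CTGCGTCT (11, 2.2%, against 0.624%) and GGGTCTCA (7, 1.4%, against 0.277%). Other words searched were TACTGTAG, in 14 windows (2.8%, against 2.81% of eligible windows), TGATAA in 26 (5.2%, against 8.49%), CACGTG in 13 (2.6%, against 1.42%) and GCGCGC in 18 (3.6%, against 0.846%). Against introns at large TGATAA was thus the less frequent and TACTGTAG as frequent, with no matching for GC content. TGATAA was also in 5.33% of exon peaks, 4.30% of intergenic peaks and 4.48% of gene-start peaks. GCGCGC was in 0.533%, 4.03% and 5.26% of these. GAGAG was in 89 windows (17.8%, interval 14.5 to 21.4%), against 12.6% of flanks, 9.51% of eligible windows, 18.1% of exon peaks and 20.4% of intergenic peaks.

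**Figure D3:**
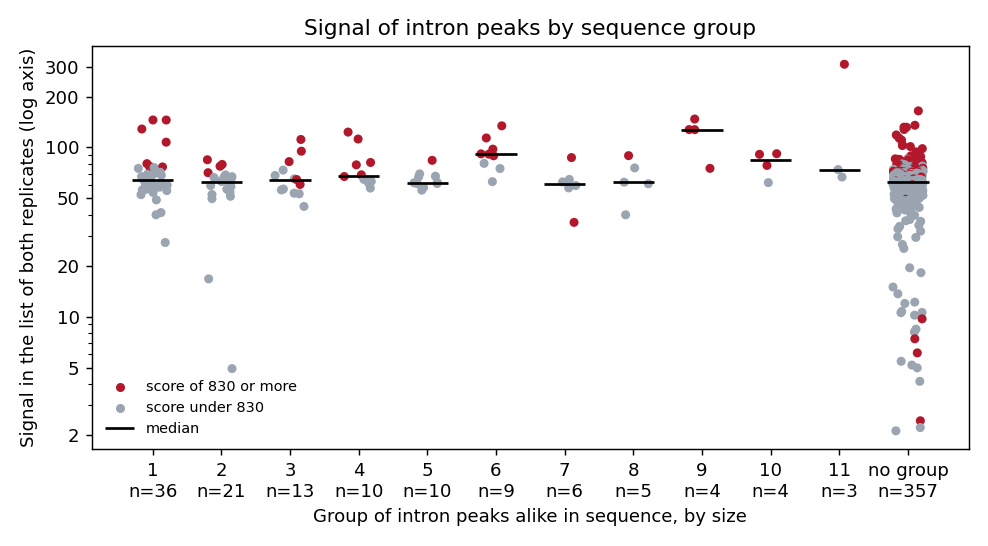
Signal in the list of both replicates (y, log axis) of each intron peak in the 11 largest groups alike in sequence and of the 357 peaks in no group (x), in red at a score of 830 or more, with a line at the median. The tRNA-like group, number 6, has a median of 91.3 and the group of T24H10.5 and pmt-2, number 9, a median of 128, while peaks in no group have 62.3.

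Intron peaks were unevenly spread along the autosomes. Chromosome V held 130 (26%, interval 22.2 to 30.1%), against 21.2% of eligible bases, and the counts on chromosomes I, II, III and IV were 95, 83, 103 and 89. The part between 25% and 75% of each chromosome's length held 152 peaks (30.4%, interval 26.4 to 34.6%), against 42.1% of eligible bases, 42.7% of exon peaks and 36.3% of intergenic peaks. Of peaks of 5 or more copies 9.73% lay there, and of single-copy peaks 39.7%. In the last 10% of chromosome V there were 59 peaks in 33 genes, 77.6 per Mb of eligible intron, against 20.6 per Mb over all autosomes and 40.7 in the next densest interval of that relative size. Elsewhere on chromosome V such intervals held 5.46 to 28.6 per Mb, and exceeded 20.6 only toward its left end. Of the 59, 25 were in the thresholded list, against 23.4% of all intron peaks and 29.1% of all kept peaks. The median signal of the 59 was 67.0, with 33.8 in replicate 1 and 37.3 in replicate 2. Over all intron peaks these medians were 62.9, 28.5 and 35.7. The 59 included the peaks of lgc-55, mdt-17, sec-23, swsn-1 and unc-51. Without these 59, 152 of 441 peaks (34.5%, interval 30.04 to 39.1%) lay in the central part. Chosen from 1 replicate alone, 16.3% of 104 intron peaks in replicate 2 and 20% of 60 in replicate 1 lay there.

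**Figure D4:**
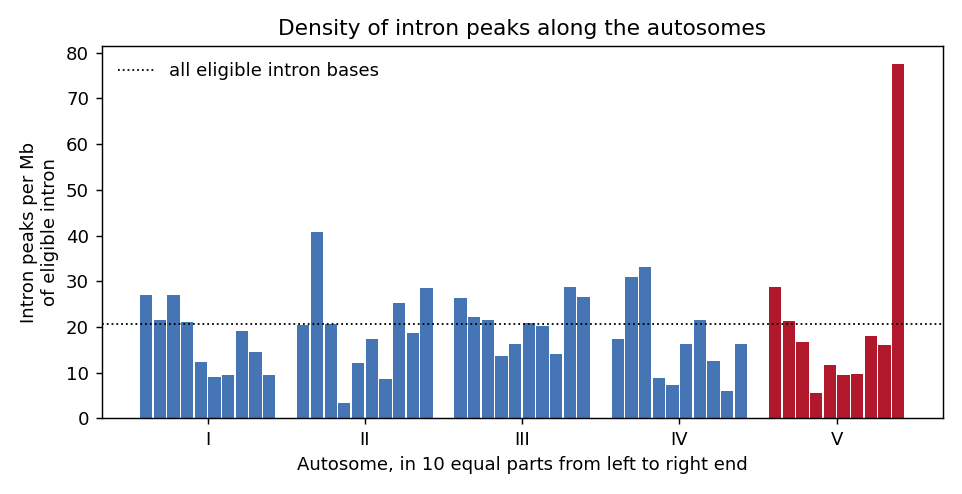
Intron peaks per Mb of eligible intron (y) in 10 equal parts of each autosome from left to right (x), with chromosome V in red; the dotted line is the value over all autosomes, 20.6 per Mb. The last part of chromosome V reaches 77.6 per Mb.

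Host genes were counted in lists by function, set beside all 15022 autosomal genes with eligible intron, of which 424 (2.82%) were hosts, with 20.2 peaks per Mb where bases shared by overlapping genes count for each gene. The list of kinases, phosphatases and small GTPase signalling had 15 hosts of 126 with 18 peaks, or 37.3 per Mb of their eligible intron, but 3 of these hosts are of other classes, the patched-related ptr-17 (127 and 68.7) and ptr-20 (56.8) and the Frizzled receptor gene lin-17 (62.8). With patched-related genes and the Wnt and Notch pathway genes of other classes left out, a step added after the values were seen, it had 12 hosts of 94 with 14 peaks, 37.2 per Mb, led by cmk-1 (310), arf-1, an ADP-ribosylation factor (77.2), and the phosphatase gene ptp-1 (71.7). Homeobox genes were hosts at 7 of 64 with 9 peaks, 53.1 per Mb, led by unc-30 (72.3 and 66.4), zfh-2 (71.1) and ceh-43 (63.3). Of these 9, 2 are side peaks as described above, the only one in ceh-38 (9.71, beside a peak of 65.4) and 1 of 2 in lim-7 (10.7, beside 49.1), and without them 6 hosts had 7 peaks, 41.3 per Mb. Axon guidance and adhesion genes were hosts at 6 of 60 with 11 peaks, 24.9 per Mb, led by unc-51 (112) and plx-1 (77.0). Chemoreceptors were hosts at 16 of 1306 with 19 peaks, 20.8 per Mb, led by srw-100 (145), srt-52 (134) and srh-233 (82.4). Without 1 side peak they had 18 peaks, 19.7 per Mb.

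The other lists had fewer peaks. Nuclear hormone receptors had 7 hosts of 243, led by nhr-145 (94.2), and other DNA-binding factors 9 of 124, led by zip-7 (118.6) and hlh-30, the TFEB homologue (79.3). Muscle genes had 5 of 47, led by dys-1 (69.8) and dyb-1, dystrobrevin (64.98). Splicing and RNA-binding genes had 4 of 81, led by hrpk-1 (76.8) and etr-1 (68.1), and chromatin genes 3 of 111, led by swsn-1 (123) and pbrm-1 (104). Per Mb of eligible intron, nuclear hormone receptors had 22.3 peaks and other DNA-binding factors 22.8. Muscle genes had 21.7, splicing and RNA-binding genes 22.3 and chromatin genes 22.03. All lie close to the 20.2 over all genes, so the larger share of hosts among muscle genes came with no clearly higher density of peaks. Neuronal and synaptic genes had 6 of 238 with 8 peaks, 10.9 per Mb, led by npr-15 (79.5). Without 1 side peak they had 7 peaks, 9.55 per Mb. Cytoskeleton genes had 1 of 65 (zyg-9, 60.6), heat shock genes 1 of 39 (dnj-24, 62.3) and cuticle collagens 1 of 111 (col-52, 40.002). With 1 peak each, their densities were 4.42, 15.4 and 22.3 per Mb. Basement membrane genes had 0 of 26 and cytosolic ribosomal protein genes 0 of 34, and the list of ribosomal protein genes covers only 0.0161% of eligible bases, so its count cannot show an absence. None of the marker genes of neurons, body wall muscle, epidermis, intestine, pharynx or germline hosted an intron peak, with at most 5 genes a list having eligible intron.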

How the data were processed

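Chromatin immunoprecipitation and sequencing were done on 2 biological replicates of L4 larvae, sonicated to a size range of 200 to 800 per the labels. The deposited files are peak lists on ce11. Notes deposited with them say that series lists derive from both replicates' alignments and sample lists from that replicate. The sources used here name neither aligner nor caller. Each list holds a score and a signal value. The authors' score is capped at 1000 and tracks the IDR (540 equals an IDR of 0.05). The authors' signal value is an enrichment on an unstated scale, used within a list only. In the ranked list of both replicates, 8 columns that name no sample were not used.

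Summits are 1-based. Genes came from Ensembl release 115 and bases and masking from RefSeq, both WBcel235, whose lengths match the files. Overlap was 1 bp or more. Eligible windows tiled eligible intron. Related windows were found with blastn 2.17.0+ (word size 7, e-value 1e-04). The motif, repeat and position steps were tested on simulated or re-derived cases. The scripts ran on Python 3.11.15 with networkx 3.6.1, scipy 1.17.1, pandas 2.3.3, numpy 2.4.6 and matplotlib 3.10.9.

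The members, gene lists and tests were chosen with earlier results of these data known. Named genes were hosts of the 25 peaks of highest signal, peaks in both replicates' lists, the 3 on either side of the score threshold, introns with 3 or more peaks and up to 3 hosts a list by signal. Others (lgc-55, sec-23, ceh-38, lim-7, ptr-20, lin-17, ptp-1, members of sequence groups and the low-signal pairs) were named after their values were seen. No p-value was computed, since 1 group of 2 replicates allows no test over samples. Alternatives covered scores, windows, distances, each replicate alone and the crowded end of chromosome V.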

Additional observations from a re-analysis of the deposited data

Results flagged for a closer look

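An intron peak on chromosome IV (summit 2821532, signal 95.8, score 1000) met every position rule but was absent from the authors' thresholded list, so the rule left it out, and it was picked out as signal in data that no comparison uses. Its summit window is masked as repeat over 57.4% of its bases. The reason for its absence was not tested.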

How the results depend on the processing

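Of 57 recomputed values, 25 stayed within the range set for their main value, namely 1.5 times for a count, the 95% interval for a share or median, or the 95% interval of the mean for the GC difference, and 32 moved beyond it. The GC difference, 8.54 percentage points, was 7.15 with 100 bp to either side of the summit and 10.8 over intron bases of the flanks alone. With a score of 830 or more, the 500 intron peaks became 117, of which 6.84% were in both replicates' lists, 26.5% lay in the first intron, 6.84% held the B box pattern, 15.4% were tandem repeats, 35.04% had 5 or more copies and 22.2% lay in the central part of a chromosome, the median intron length was 1301 bp and the GC difference 11.4. At that score, the values for tandem repeats, copies and the central part were chosen after the data were seen. Leaving out each replicate, also chosen then, gave 60 to 104 intron peaks, 22.1 to 35% in the first intron, a median intron of 1150 to 1344 bp, 10 to 10.6% with the B box pattern, 14.4 to 18.3% tandem repeats, 28.3 to 37.5% of 5 or more copies, 16.3 to 20% in the central part and a GC difference of 10.2 to 10.7. Overlap with a replicate's list was 2.8 to 7.6% for either list alone and 4.4% for both ranked lists at a score of 540. The share in the first intron was 22.4% by the longest coding transcript. With 100 bp to either side of the summit, 10.4% of windows held the B box pattern, and no flanks or eligible windows of that width were searched. Tandem repeats made up 13.8% at a match of 60% and 5.8% at 80%, which were also chosen afterwards, as were leaving out the last 10% of chromosome V and the side peaks. The cause of these moves was not tested. No paired analysis was possible because the result comes from no test and there is 1 group. Depth is unknown, so no limit on undetected intron sites can be given.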
